A study of Mus musculus with 12 samples.

Results

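Primitive endoderm factors and the laminins and matrix protein made by that tissue were followed in mouse embryonic stem cells that lacked a subunit of the HUSH complex. The members were 10 genes of the 57180 listed, matched by symbol: the transcription factor genes Gata4, Gata6, Sox17, Sox7 and Foxa2, the receptor gene Pdgfra, the adaptor gene Dab2, the laminin chain genes Lama1 and Lamb1, and Sparc, which encodes a secreted matrix protein. HUSH, a chromatin complex of MPP8, TASOR and periphilin, is known for its part in silencing retroelements. All 12 libraries came from C57BL/6 embryonic stem cells, with 3 each from wild-type cells (WT), cells null for the MPP8 gene Mphosph8 (MP8), cells null for Tasor (Tas) and cells null for Pphln1, the periphilin gene (Pph). No treatment or time point was given for any group. The labels name no clone, passage or culture for a library, so the p-values measure the spread between these libraries, which may be technical, and a genotype may be 1 clone.

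The primitive endoderm is the layer of the blastocyst that arises beside the pluripotent epiblast and later gives the visceral and parietal endoderm of the yolk sacs. In its precursors FGF signals favour GATA6, a zinc finger factor that acts against NANOG, and GATA4, SOX17, SOX7 and FOXA2 follow. PDGFRA, a receptor tyrosine kinase for platelet-derived growth factors, marks these precursors, DAB2 links endocytic receptors to clathrin at the apical membrane, and parietal endoderm lays down a basement membrane rich in laminin, type IV collagen and SPARC. Embryonic stem cell cultures are known to hold a few cells with features of this lineage.

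Library totals ranged from 17918770 to 21962079 estimated counts. Levels are in CPM (counts scaled to a common library size and composition, mean ± SD of 3 libraries), and 3 counts in a library, taken as the floor, corresponded to 0.138 to 0.165 CPM. Log2 fold changes are given ± SE with adjusted p-values from edgeR's quasi-likelihood test over 16840 tested genes, with a threshold of 0.05. Each null group had fewer reads of its own targeted gene. Mphosph8 stood at 113.3 ± 3.23 CPM in WT and 0.306 ± 0.35 CPM in MP8, Tasor at 126.5 ± 2.7 CPM in WT and 31.9 ± 1.19 CPM in Tas, and Pphln1 at 68.5 ± 2.91 CPM in WT and 21.3 ± 1.66 CPM in Pph. Pou5f1, a stem cell factor gene, was detected in each group, between 713.0 ± 18.8 CPM in Pph and 963.1 ± 3.14 CPM in Tas. It is 1 marker: of 14 pluripotency genes 13 were lower than in WT in MP8 and 13 in Pph. In Tas 8 of the 14 were lower and 2 higher. Of all tested genes, 32.2% were called lower in MP8, 25.7% in Pph and 25.5% in Tas, and 26.2% were called higher in Tas.

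The name of the set fitted these cells only in part. The 5 transcription factor genes that define primitive endoderm together had 39, 51 and 51 counts in the WT libraries, and Sparc by itself had 7907 to 8492. Among 16 visceral endoderm markers, Ttr, Apoa4, Fgb and Hnf4a had 3 counts or fewer in each of the 12 libraries. The list as a whole nonetheless summed to 586.9 to 602.6 CPM in WT and 931.1 to 963.6 CPM in MP8. Most of the WT sum was Apoe, at 462.2 CPM in WT and 489.3 CPM in MP8. Lrp2 stood at 100.4 CPM in WT, and most of the rise of the sum in MP8 was Lrp2, whose levels are given with Dab2. These sums thus do not describe the list broadly, and its members ranged from absent to well detected. In bulk RNA, a change in the number of cells of a type and a change in RNA per cell cannot be told apart.

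Promoter windows are shown for 3 genes that the results turn on: Sparc and Lamb1, which had the most counts and smallest errors, and Dab2, an endocytic adaptor gene known to respond to GATA factors, for which RefSeq lists a pair of start sites. The windows are the 250 bases before each start in RefSeq GRCm38.p6, a build other than the GRCm39 of the deposited files. They lie at chr15:6299539-6299788 (+ strand) and chr15:6386498-6386747 (+ strand) for Dab2 starts 1 and 2, at chr12:31265043-31265292 (+ strand) for Lamb1 and at chr11:55420081-55420330 (- strand) for Sparc. Capitals mark letters that GATA factors are known to bind.
Dab2 start 1: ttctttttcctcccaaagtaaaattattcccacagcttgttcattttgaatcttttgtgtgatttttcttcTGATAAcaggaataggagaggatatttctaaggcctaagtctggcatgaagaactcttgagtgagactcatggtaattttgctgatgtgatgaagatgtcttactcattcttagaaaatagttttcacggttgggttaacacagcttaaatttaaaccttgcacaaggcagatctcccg
Dab2 start 2: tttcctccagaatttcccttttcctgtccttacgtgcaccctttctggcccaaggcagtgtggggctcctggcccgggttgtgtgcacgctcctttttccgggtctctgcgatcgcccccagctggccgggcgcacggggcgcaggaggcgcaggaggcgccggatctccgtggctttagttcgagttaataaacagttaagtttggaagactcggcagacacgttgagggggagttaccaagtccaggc
Lamb1: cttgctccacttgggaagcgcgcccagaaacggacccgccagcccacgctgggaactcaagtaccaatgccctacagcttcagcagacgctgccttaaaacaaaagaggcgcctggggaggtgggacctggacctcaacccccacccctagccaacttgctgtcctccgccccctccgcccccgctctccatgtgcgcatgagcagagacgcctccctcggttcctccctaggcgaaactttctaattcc
Sparc: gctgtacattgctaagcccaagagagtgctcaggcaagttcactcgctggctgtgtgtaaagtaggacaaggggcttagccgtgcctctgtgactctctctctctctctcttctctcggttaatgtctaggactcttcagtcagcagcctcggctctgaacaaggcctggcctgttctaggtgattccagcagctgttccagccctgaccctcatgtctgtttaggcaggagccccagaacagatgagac
The letters searched for GATA factors were GATA with A or T before it and A or G after it, and those for SOX factors were ATTGT, on both strands. RefSeq windows matched 5 of the 10 members (Dab2, Foxa2, Lamb1, Pdgfra and Sparc, with 8 windows between them). TGATAA stood 179 to 174 bases before Dab2 start 1 and AGATAA stood 183 to 178 bases before Foxa2 start 3, and the other 6 windows had no GATA match. None of the 8 windows had a SOX match. Of 32851 windows of the same length, 26.5% held a GATA match and 27.7% a SOX match, so a match is common and describes the letters only.

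Per transcript length, the members spanned a wide range of levels. In WT, Sparc had 260.6 ± 7.04 TPM, Lamb1 38.1 ± 1.45 TPM, Lama1 25.4 ± 2.32 TPM and Dab2 1.49 ± 0.166 TPM, and the libraries of these 4 genes did not overlap. Below them came Sox7 at 0.413 ± 0.0462 TPM, Gata4 at 0.357 ± 0.111 TPM, Gata6 at 0.163 ± 0.0777 TPM, Pdgfra at 0.127 ± 0.00577 TPM, and Sox17 and Foxa2 at 0.0933 TPM each (SD 0.0839 and 0.0603). Neighbours in this lower part of the order overlapped between libraries. The first 4 places were held by the same genes in the same order in MP8, Tas and Pph, and Foxa2 or Sox17 came last in each group. Sparc TPM ranged from 208.7 ± 2.65 in MP8 to 473.9 ± 7.54 in Pph.

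**Figure D1:**
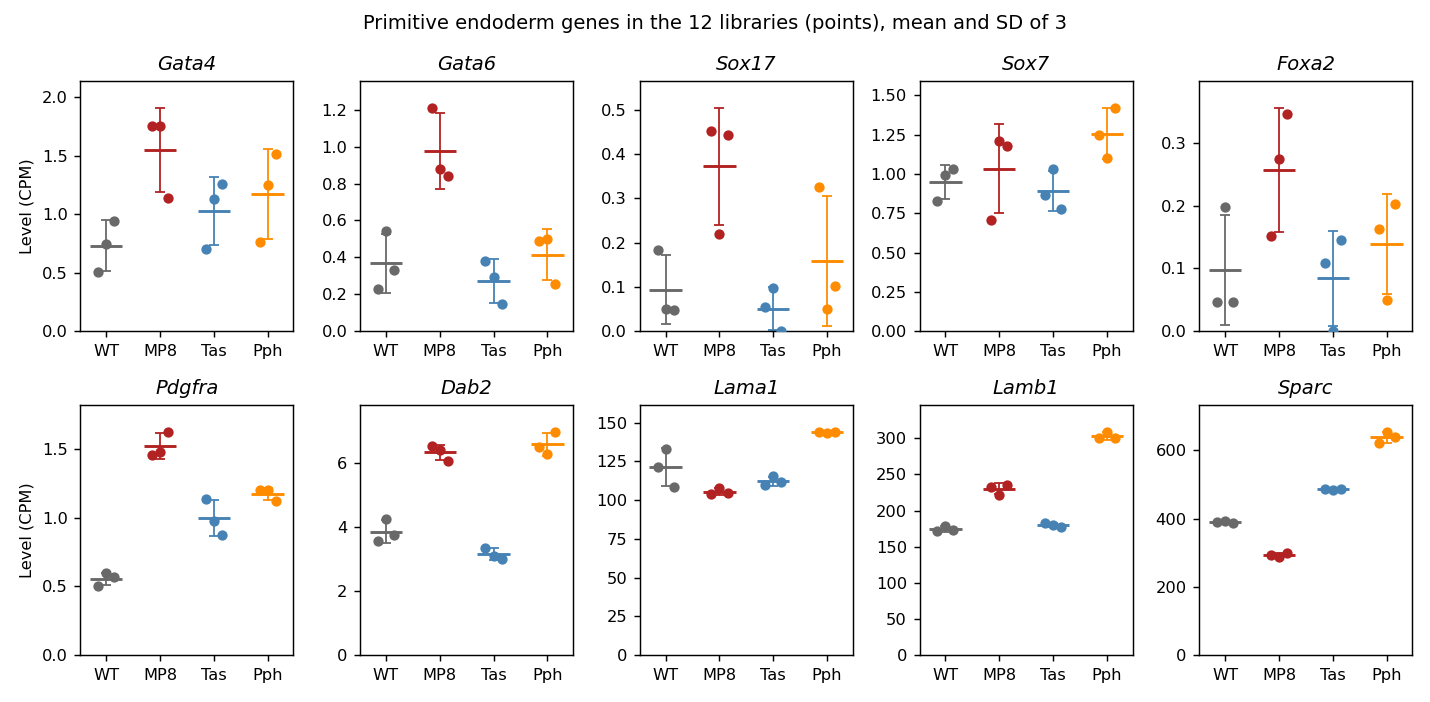
Level in CPM (linear axis from 0) of each of the 10 genes in the 12 libraries by group; points are libraries, bars the mean and whiskers the SD of 3. Sparc lies lowest in MP8 and highest in Pph, Lamb1 and Lama1 are highest in Pph, and the transcription factor genes stay below 2 CPM in each library.

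Of the tested transcription factor genes, Gata4 and Gata6 passed the test as higher in MP8 than in WT, and neither passed it in Tas or Pph against WT. Gata4, a zinc finger factor of extraembryonic endoderm and heart, had 11, 15 and 20 counts in WT, 35, 32 and 23 in MP8, 13, 23 and 26 in Tas, and 14, 25 and 30 in Pph. All 3 MP8 libraries lay above the WT libraries, while those of Tas and Pph overlapped WT. Its level was 0.73 ± 0.218 CPM in WT and 1.55 ± 0.361 CPM in MP8, a log2 fold change of 1.08 ± 0.32 (edgeR adjusted p = 0.00485). In Tas it was 1.03 ± 0.292 CPM (log2 fold change 0.51 ± 0.34, edgeR adjusted p = 0.222), and in Pph 1.18 ± 0.386 CPM (0.70 ± 0.34, edgeR adjusted p = 0.0792). Without Pph replicate 1 the Pph value passed the threshold (edgeR adjusted p = 0.0284), as it did without WT replicate 3 (edgeR adjusted p = 0.0473). No comparison between null groups was called for Gata4.

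Gata6, the earliest known factor of the lineage, had 5, 11 and 7 counts in WT, 24, 16 and 17 in MP8, 7, 6 and 3 in Tas, and 9, 10 and 5 in Pph. Each MP8 library lay above the other 9 libraries. The means were 0.976 CPM in MP8 and 0.368, 0.273 and 0.414 CPM in WT, Tas and Pph. The log2 fold change was 1.40 ± 0.41 against WT (edgeR adjusted p = 0.00386), 1.83 ± 0.44 against Tas (edgeR adjusted p = 0.000693) and 1.23 ± 0.41 against Pph (edgeR adjusted p = 0.0108). The gene passed the filter on low counts through its MP8 libraries, so among genes at this level it had to differ, and its calls are given as description. The MP8 and Pph difference lost its call without MP8 replicate 1 (edgeR adjusted p = 0.0665) and without Pph replicate 3 (edgeR adjusted p = 0.0743). In the authors' deposited table the adjusted p for MP8 against WT was 0.04394 for Gata6 and 0.04246 for Gata4.

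Sox17 and Foxa2 fell below the filter and were read from the fit without it. Sox17, a factor of primitive and definitive endoderm, had 4, 1 and 1 counts in WT, 9, 4 and 9 in MP8, 1, 2 and 0 in Tas, and 6, 1 and 2 in Pph. The MP8 libraries lay at or above the highest WT library, and the sums were 22 counts in MP8 and 6 in WT, a ratio per library size of 3.97 (95% exact interval 1.56 to 12, counting error only). With the spread between libraries included, the change missed the threshold (edgeR adjusted p = 0.053). Against the 3 counts in Tas the ratio was 7.48 (95% exact interval 2.25 to 39), with an edgeR adjusted p of 0.0102, and each Tas library lay below the floor. Against the 9 counts in Pph the ratio was 2.44 (95% exact interval 1.08 to 6.01). That difference was not called (edgeR adjusted p = 0.258). Foxa2, a forkhead factor of endoderm, had 1, 4 and 1 counts in WT, 3, 5 and 7 in MP8, 2, 0 and 3 in Tas, and 3, 1 and 4 in Pph. Its ratio of MP8 to WT was 2.71 (95% exact interval 0.993 to 8.52), and none of its 6 comparisons was called. Differences of Sox17 and Foxa2 between WT, Tas and Pph were not detectable at this depth.

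Sox7, a factor of the same SOX subfamily as Sox17, was the transcription factor gene with the most counts in WT and did not pass the test in any of the 6 comparisons. Its counts were 18, 20 and 22 in WT, 14, 22 and 24 in MP8, 16, 21 and 16 in Tas, and 23, 22 and 28 in Pph. Its log2 fold change was 0.12 ± 0.30 in MP8 (edgeR adjusted p = 0.754), -0.09 ± 0.31 in Tas (edgeR adjusted p = 0.824) and 0.40 ± 0.29 in Pph (edgeR adjusted p = 0.249). The counts of the 5 transcription factor genes added up to 39, 51 and 51 in WT, 85, 79 and 80 in MP8, 39, 52 and 48 in Tas, and 55, 59 and 69 in Pph. The MP8 sums were the highest of the 12 libraries and the Tas sums lay within 1 count of the WT range.

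Pdgfra, the receptor gene used to mark primitive endoderm precursors, rose in each null group, the only tested member to do so. It had 11, 12 and 12 counts in WT, 29, 27 and 33 in MP8, 21, 20 and 18 in Tas, and 22, 24 and 22 in Pph, so each null library lay above each WT library. The WT mean of 0.555 CPM compared with 1.52 CPM in MP8 (log2 fold change 1.45 ± 0.29, edgeR adjusted p = 7.68e-05), 0.997 CPM in Tas (0.84 ± 0.31, edgeR adjusted p = 0.0237) and 1.17 CPM in Pph (1.07 ± 0.30, edgeR adjusted p = 0.00322). The Tas call was lost without WT replicate 1 (edgeR adjusted p = 0.0668), without Tas replicate 1 (edgeR adjusted p = 0.0786) and with DESeq2 (adjusted p = 0.0949). In the authors' deposited table the adjusted p was 0.005522 in MP8, 0.2223 in Tas and 0.08876 in Pph. In TPM the MP8 libraries had 0.34, 0.32 and 0.92, although their counts were close, so the third stood apart on that scale only.

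The other genes of the PDGF system were counted from a list of 5, of which 4 were tested. In MP8 3 of these 4 were higher and none lower, in Tas 1 was higher, and in Pph 3 were higher and 1 lower. Of all tested genes, 30.0% were called higher and 32.2% lower in MP8, 26.2% and 25.5% in Tas, and 30.6% and 25.7% in Pph. Pdgfrb, the sister receptor gene of mural cells and fibroblasts, rose, with 0.476 ± 0.339 CPM in WT, 1.19 ± 0.13 in MP8 (log2 fold change 1.31 ± 0.37, edgeR adjusted p = 0.00269) and 2.12 ± 0.148 in Pph (2.14 ± 0.34, edgeR adjusted p = 3.34e-06). Its WT mean lay below the filter cutoff of 0.504 CPM, so its calls are given as description. Pdgfc, a ligand gene, rose by a log2 value of 0.19 ± 0.06 in MP8 and 0.52 ± 0.06 in Pph. Pdgfa, the ligand gene best known for signalling to PDGFRA, was higher in Tas by 0.34 ± 0.07 and lower in Pph at -0.20 ± 0.07.

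Dab2 rose in MP8 and Pph to nearly the same level. Its counts were 78, 86 and 80 in WT, 130, 117 and 123 in MP8, 62, 63 and 62 in Tas, and 120, 126 and 138 in Pph. The MP8 and Pph libraries lay above the WT libraries and overlapped each other, and the Tas libraries lay below them all. The level was 3.87 ± 0.352 CPM in WT, 6.35 ± 0.246 in MP8 (log2 fold change 0.71 ± 0.13, edgeR adjusted p = 2.19e-05), 6.61 ± 0.358 in Pph (0.77 ± 0.13, edgeR adjusted p = 7.97e-06) and 3.15 ± 0.181 in Tas (-0.30 ± 0.14, edgeR adjusted p = 0.086). The Tas value passed the threshold with upper quartile scaling (edgeR adjusted p = 0.0443) and was 0.06 in TPM with limma (adjusted p = 0.806). Tas differed from MP8 (log2 fold change of MP8 over Tas 1.01 ± 0.14, edgeR adjusted p = 2.08e-07) and from Pph (Tas over Pph -1.07 ± 0.14, edgeR adjusted p = 6.39e-08). MP8 and Pph differed by -0.06 ± 0.12 (edgeR adjusted p = 0.701).

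The genes that act with Dab2 in endocytosis were a list of 13, each tested. In MP8 5 were higher and 5 lower, in Tas 2 were higher and 6 lower, and in Pph 9 were higher and 2 lower. These counts stand beside the shares of all tested genes given with the PDGF list. Lrp2, the gene of megalin, the large endocytic receptor that DAB2 serves in visceral endoderm and kidney, rose, with 100.4 ± 7.88 CPM in WT, 410.8 ± 11.1 in MP8 (log2 fold change 2.03 ± 0.04, edgeR adjusted p = 2.58e-25), 291.5 ± 7.33 in Pph (1.54 ± 0.04, edgeR adjusted p = 4.36e-22) and 134.2 ± 2.99 in Tas (0.42 ± 0.04, edgeR adjusted p = 2.65e-09). Cubn, the gene of its partner cubilin, rose from 1.19 ± 0.149 CPM to 3.43 ± 0.511 in MP8 (1.53 ± 0.23, edgeR adjusted p = 8.27e-07) and to 1.87 ± 0.346 in Pph (0.66 ± 0.24, edgeR adjusted p = 0.0221). Dab1, the related adaptor gene of reelin signalling in neurons, had 18.2 CPM in WT and rose in each null group, to 42.1 ± 0.739 (MP8), 43.5 ± 1.0 (Tas) and 20.7 ± 1.71 CPM (Pph).

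Lama1, which encodes an alpha chain of early embryonic laminin, moved little and in opposite directions. Its levels were 121.5, 133.2 and 108.6 CPM in the WT libraries, 104.0, 107.8 and 104.6 in MP8, 109.7, 115.5 and 111.4 in Tas, and 143.9, 143.6 and 144.3 in Pph. WT was the most spread group, MP8 lay below it and Pph above it. The log2 fold change was -0.20 ± 0.05 in MP8 (edgeR adjusted p = 0.0014), -0.11 ± 0.05 in Tas (edgeR adjusted p = 0.0707) and 0.25 ± 0.05 in Pph (edgeR adjusted p = 0.000142). The Tas value passed the threshold with upper quartile scaling (edgeR adjusted p = 0.0102), with no filter (edgeR adjusted p = 0.0456) and without WT replicate 3, the lowest WT library (edgeR adjusted p = 0.000594). Pph lay above MP8 and Tas as well (log2 fold change of MP8 over Pph -0.45 ± 0.05, edgeR adjusted p = 4.28e-08, and of Tas over Pph -0.36 ± 0.05, edgeR adjusted p = 1.25e-06).

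Lamb1, which encodes the beta chain of the same trimer, rose in MP8 and Pph, most in Pph. Its levels were 171.3, 178.7 and 173.4 CPM in WT, 233.1, 221.6 and 235.9 in MP8, 182.1, 180.2 and 177.6 in Tas, and 300.1, 309.4 and 300.7 in Pph. The groups stood apart except for Tas, which overlapped WT. The log2 fold change was 0.40 ± 0.03 in MP8 (edgeR adjusted p = 1.24e-11), 0.80 ± 0.03 in Pph (edgeR adjusted p = 1.09e-18) and 0.04 ± 0.03 in Tas (edgeR adjusted p = 0.277). All 3 comparisons between null groups were called, with MP8 over Tas at 0.36 ± 0.03 (edgeR adjusted p = 2.11e-10) and MP8 over Pph at -0.40 ± 0.03 (edgeR adjusted p = 1.18e-11). The paired chains thus went apart in MP8, where Lama1 was lower and Lamb1 higher.

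Sparc, whose protein binds collagen and calcium in matrix, was the most abundant member and fell in MP8 while it rose in Tas and Pph. The WT libraries had 390.2, 392.0 and 387.4 CPM, the MP8 libraries 292.5, 287.6 and 298.4, the Tas libraries 485.5, 483.5 and 486.5, and the Pph libraries 621.8, 654.6 and 639.6. No group overlapped another. The log2 fold change against WT was -0.41 ± 0.03 in MP8 (edgeR adjusted p = 3.71e-13), 0.32 ± 0.03 in Tas (edgeR adjusted p = 1.71e-10) and 0.71 ± 0.03 in Pph (edgeR adjusted p = 7.01e-19). The widest gap was between MP8 and Pph, at -1.12 ± 0.03 on the log2 scale, or 2.18-fold higher in Pph (edgeR adjusted p = 9.69e-24). MP8 and Tas differed by -0.73 ± 0.03 (edgeR adjusted p = 7.32e-19) and Tas and Pph by -0.40 ± 0.03 (edgeR adjusted p = 6.8e-13).

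**Figure D2:**
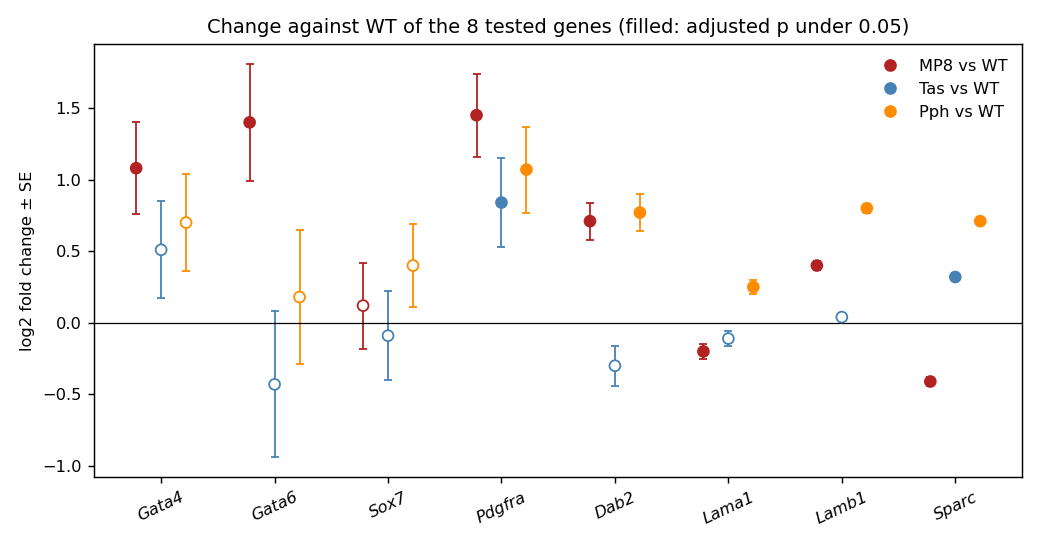
Log2 fold change against WT (vertical axis, ± SE of the fit) of the 8 tested genes in MP8, Tas and Pph; filled points have an adjusted p under 0.05. Sparc and Lama1 lie below 0 in MP8 and above 0 in Pph, and Pdgfra is filled in the 3 comparisons.

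These counts have to be read against genotypes that differed from WT in much of the transcriptome. In MP8 against WT 62.2% of tested genes were called (30.0% higher and 32.2% lower), and of the 8 tested members 5 were higher, 2 lower and 1 not called. In Tas 51.8% were called (26.2% higher and 25.5% lower), and 2 members were higher, 0 lower and 6 not called. In Pph 56.3% were called (30.6% higher and 25.7% lower), and 5 members were higher, 0 lower and 3 not called. The median log2 fold change of the tested members was 0.55 in MP8, -0.02 in Tas and 0.70 in Pph, beside -0.02, -0.01 and 0.04 for all tested genes. The comparisons with WT share its 3 libraries.

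At a called change of 2-fold or more, MP8 had 3 members (Gata4, Gata6 and Pdgfra; background 14.3%), Pph had 1 (Pdgfra; background 11.1%) and Tas 0 (background 10.2%). Gata6 passed the filter through MP8 only, so its place in the MP8 counts is a description. Members with no overlap between null and WT libraries numbered 7 in MP8 (background 66.0%), 3 in Tas (58.1%) and 6 in Pph (60.3%). Between null groups, 4 of the 8 tested members were called in each comparison: 3 higher and 1 lower in MP8 against Tas (background 56.1%, with 27.7% higher and 28.4% lower), 1 higher and 3 lower in MP8 against Pph (58.8%, with 27.4% higher and 31.4% lower), and 0 higher and 4 lower in Tas against Pph (57.8%, with 28.5% higher and 29.3% lower). The 4 genes lower in Tas than in Pph were Dab2, Lama1, Lamb1 and Sparc. Of 8 tested genes each is a large share, so these counts are a description of the set, and nothing particular to it is read from them.

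Besides Lama1 and Lamb1, 8 laminin chain genes were listed and 7 of them tested. In MP8 5 were higher and 1 lower, in Tas 6 higher and 1 lower, and in Pph 5 higher and 0 lower, with median log2 fold changes of 0.44, 0.37 and 0.67. Counts of this and each later list stand beside the shares of all tested genes. Those were 30.0% higher and 32.2% lower in MP8, 26.2% and 25.5% in Tas, and 30.6% and 25.7% in Pph. Lama2, an alpha chain gene of muscle and nerve, rose in each null group: WT had 0.82 ± 0.115 CPM, MP8 7.53 ± 1.13 (log2 fold change 3.19 ± 0.22, edgeR adjusted p = 8.78e-13), Tas 5.21 ± 1.57 (2.66 ± 0.23, edgeR adjusted p = 1.52e-10) and Pph 3.35 ± 0.498 (2.01 ± 0.25, edgeR adjusted p = 9.32e-08). Lama3, an alpha chain gene of epithelial laminin, had 60.7 ± 4.5 CPM in WT and rose to 172.6 ± 4.9 CPM in MP8 (1.51 ± 0.05, edgeR adjusted p = 1.38e-22) and 85.3 ± 2.67 CPM in Tas (0.49 ± 0.05, edgeR adjusted p = 3.38e-10), with 63.7 ± 2.02 CPM in Pph (0.07 ± 0.05, edgeR adjusted p = 0.221). Lama4, an alpha chain gene of vessels, rose in MP8 (0.78 ± 0.16) and Pph (1.55 ± 0.15) and fell in Tas (-0.90 ± 0.19, edgeR adjusted p = 0.000267). Lamc1, the gamma chain gene that completes the trimer with Lama1 and Lamb1, had 378.7 ± 23.7 CPM in WT and changed by -0.10 ± 0.04 in MP8 (edgeR adjusted p = 0.0132), 0.09 ± 0.04 in Tas (edgeR adjusted p = 0.0411) and 0.48 ± 0.04 in Pph (edgeR adjusted p = 7.55e-13). Apoe, Lamc1, Pdgfa and Pou5f1 were chosen for description after their values were seen.

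Other basement membrane genes, a list of 12 with 11 tested, were higher in 9 cases and lower in 0 in Pph, higher in 5 and lower in 1 in MP8, and higher in 6 and lower in 2 in Tas. The type IV collagen genes, partners of laminin in the sheet, rose in each null group. Col4a1 stood at 34.6 ± 2.08 CPM in WT, 51.1 ± 1.77 in MP8 (log2 fold change 0.56 ± 0.05), 56.4 ± 3.33 in Tas (0.71 ± 0.05) and 141.9 ± 3.33 in Pph (2.03 ± 0.05, edgeR adjusted p = 9.55e-25). Col4a2 went from 13.1 ± 0.912 CPM to 20.2 ± 0.732, 17.6 ± 0.814 and 87.2 ± 4.35 CPM (2.74 ± 0.06 in Pph, edgeR adjusted p = 1.95e-25). Tinagl1, which encodes a laminin-binding matrix protein, rose in Tas (0.75 ± 0.15) and Pph (2.72 ± 0.12, edgeR adjusted p = 1.14e-17) and was at 0.35 ± 0.16 in MP8 (edgeR adjusted p = 0.0521).

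**Figure D3:**
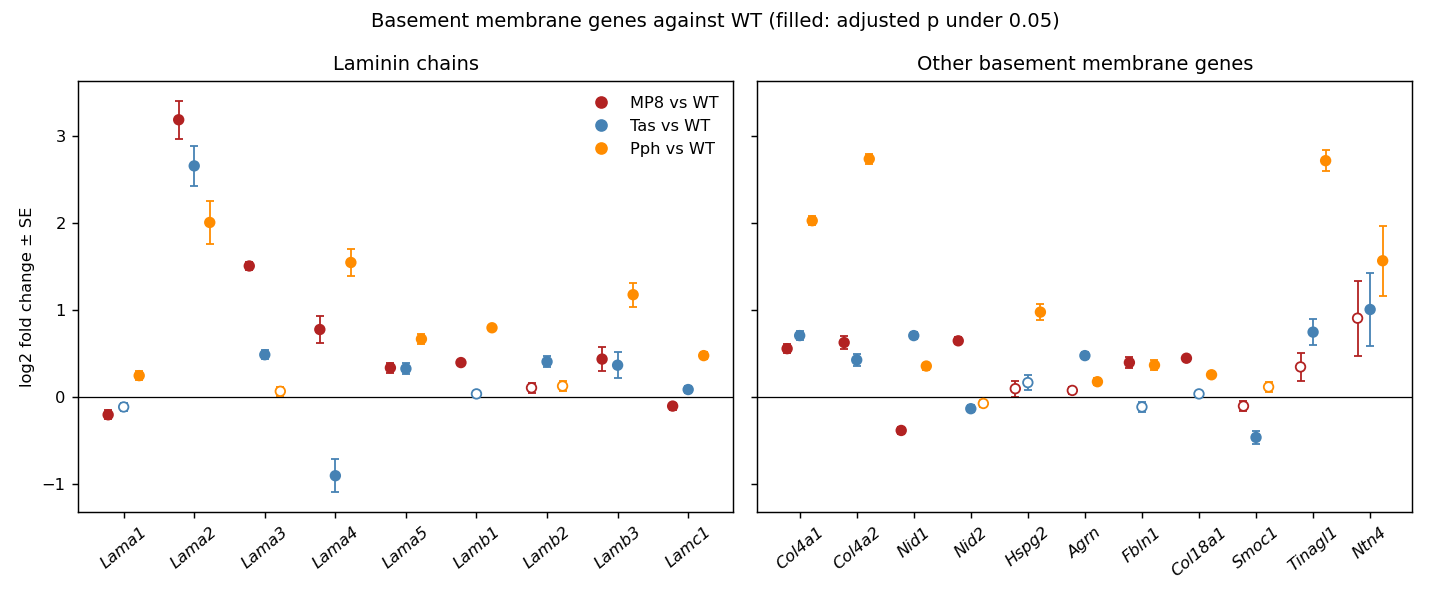
Log2 fold change against WT (vertical axis, ± SE) of tested laminin chain genes and of other basement membrane genes in MP8, Tas and Pph; filled points have an adjusted p under 0.05. Lama2 is highest in MP8 (3.19), and Col4a1 (2.03), Col4a2 (2.74) and Tinagl1 (2.72) stand out in Pph.

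Of 15 tested receptors for laminin and matrix, 13 were higher and 1 lower in Pph, against 8 and 5 in MP8 and 7 and 4 in Tas. Itga3, a laminin-binding integrin gene, rose from 88.9 ± 3.94 CPM in WT to 429.4 ± 17.0 in Pph (log2 fold change 2.27 ± 0.04, edgeR adjusted p = 1.38e-28) and 129.7 ± 1.85 in MP8 (0.54 ± 0.04), and fell in Tas (-0.13 ± 0.04). Itga1, a collagen- and laminin-binding integrin gene, fell from 2.81 ± 0.488 CPM in WT to 1.73 ± 0.511 in MP8 (-0.70 ± 0.27, edgeR adjusted p = 0.0283) and 0.591 ± 0.371 in Tas (-2.21 ± 0.32, edgeR adjusted p = 2.19e-06). Sdc4, a heparan sulfate proteoglycan gene, had its greatest rise in MP8 (1.27 ± 0.04), followed by Tas (0.65 ± 0.04) and Pph (0.39 ± 0.04). Of 12 enzymes that fold and modify collagen, 5 were higher and 5 lower in MP8, 5 and 4 in Tas, and 7 and 1 in Pph. P4ha1, a prolyl hydroxylase gene, fell in MP8 (-0.95 ± 0.08) and Tas (-0.25 ± 0.07) and rose in Pph (0.32 ± 0.07). Plod2, a lysyl hydroxylase gene, rose in the 3 null groups (0.77 ± 0.05, 0.40 ± 0.05 and 0.89 ± 0.05), while its relative Plod1 fell in MP8 (-0.82 ± 0.04) and rose in Tas (0.15 ± 0.04) and Pph (0.40 ± 0.04). Among 8 tested relatives of Sparc and close matricellular genes, 4 were higher and 2 lower in MP8, 1 and 6 in Tas, and 6 and 1 in Pph. The shares of all tested genes given with the laminin chains apply to these counts too. Spock3, a testican gene of the SPARC family, was higher in the 3 null groups (4.17 ± 0.12 in MP8, 3.55 ± 0.13 in Tas, 2.65 ± 0.14 in Pph), so the relative rose in MP8, where Sparc fell. Thbs1, a thrombospondin gene, rose in MP8 (1.18 ± 0.08) and Pph (2.80 ± 0.07) and fell in Tas (-0.98 ± 0.10).

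Of 12 other regulators of the lineage 7 were tested, with 1 higher and 2 lower in MP8, 0 and 2 in Tas, and 1 and 2 in Pph. Of all tested genes 62.2%, 51.8% and 56.3% were called in these comparisons, and 7 genes are too few to read a difference from those shares. Cited1, a transcription coregulator gene, rose from 1.3 ± 0.288 CPM to 3.92 ± 0.139 in MP8 (log2 fold change 1.59 ± 0.19, edgeR adjusted p = 2.44e-08) and 6.1 ± 0.347 in Pph (2.23 ± 0.18, edgeR adjusted p = 1.11e-11), while Foxa3, a forkhead gene, fell in MP8 (-0.82 ± 0.21), and Klf5, also on the pluripotency list, fell in the 3 null groups (-0.53 ± 0.05, -0.79 ± 0.05 and -0.28 ± 0.04). Hnf4a and Gata5 had 3 counts or fewer in each library. In the GATA and SOX families, 9 of 18 tested relatives were higher and 7 lower in MP8, 5 and 7 in Tas, and 8 and 6 in Pph. Beside them, 30.0% of all tested genes were higher and 32.2% lower in MP8, 26.2% and 25.5% in Tas, and 30.6% and 25.7% in Pph. Sox6, a factor of cartilage, muscle and neurons, rose from 6.52 ± 0.271 CPM to 108.8 ± 5.24 in MP8 (4.06 ± 0.06, edgeR adjusted p = 9.66e-30), 68.8 ± 3.12 in Tas (3.40 ± 0.07) and 46.7 ± 2.11 in Pph (2.84 ± 0.07). Gata3, a trophectoderm factor gene, rose in MP8 (0.89 ± 0.30, edgeR adjusted p = 0.0104) and Pph (2.13 ± 0.27, edgeR adjusted p = 5.84e-08).

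Of the tissues that primitive endoderm gives rise to, visceral endoderm had 7 of 16 markers tested, with 4 higher and 0 lower in MP8, 1 and 1 in Tas, and 5 and 1 in Pph. Apob, a lipoprotein gene of the yolk sac and liver, rose from 3.45 ± 0.193 CPM to 11.4 ± 0.644 in MP8 (log2 fold change 1.72 ± 0.12, edgeR adjusted p = 1.18e-13) and 11.1 ± 0.705 in Pph (1.68 ± 0.12, edgeR adjusted p = 3.56e-13). Lrp2 and Cubn, described with Dab2, also belong to this list. Of the anterior visceral endoderm markers 4 of 7 were tested, with 1 higher and 1 lower in MP8, 0 and 2 in Tas, and 0 and 1 in Pph. Otx2, a homeobox gene of this tissue and of the primed epiblast, fell in the 3 null groups (-0.90 ± 0.09, -0.52 ± 0.09 and -3.40 ± 0.12), and Cer1 had 3 counts or fewer in each library.

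Parietal endoderm markers, 9 tested of 10, were higher in 6 cases and lower in 1 in MP8, 1 and 3 in Tas, and 5 and 1 in Pph. Fst, which encodes the activin inhibitor follistatin, rose by 1.64 ± 0.16 in MP8 (edgeR adjusted p = 3.09e-10) and 0.85 ± 0.17 in Pph (edgeR adjusted p = 9.28e-05), while Tfpi, a coagulation inhibitor gene, fell in the 3 null groups (-1.22 ± 0.07, -1.82 ± 0.08 and -1.62 ± 0.08). Definitive endoderm and mesendoderm markers, which share Sox17 and Foxa2 with this lineage, were 8 tested of 11, with 3 higher in MP8, 1 in Tas and 1 in Pph, and 0 lower. Wnt3, a ligand gene of the primitive streak, rose in MP8 (2.62 ± 0.24, edgeR adjusted p = 1.15e-10) and Pph (1.39 ± 0.27, edgeR adjusted p = 5.62e-05), and Nodal rose in MP8 (0.91 ± 0.04) and Tas (0.57 ± 0.04). The FGF and ERK genes that act in the choice between epiblast and primitive endoderm were 18, with 6 higher and 7 lower in MP8, 2 and 12 in Tas, and 4 and 5 in Pph. Fgf5, a ligand gene of the formative epiblast, had 1.09 ± 0.224 CPM in WT and rose to 3.43 ± 0.455 in MP8 (1.65 ± 0.25, edgeR adjusted p = 1.3e-06), while it fell in Pph to 0.209 ± 0.0944 (-2.37 ± 0.39, edgeR adjusted p = 5.58e-06) and in Tas to 1 count in each library (edgeR adjusted p = 2.69e-08). Spry1, a feedback inhibitor gene, fell in MP8 (-0.74 ± 0.10) and Tas (-1.11 ± 0.10). Dusp6, a feedback phosphatase gene, rose in MP8 (1.14 ± 0.04) and Pph (1.09 ± 0.04) and fell in Tas (-0.18 ± 0.04).

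**Figure D4:**
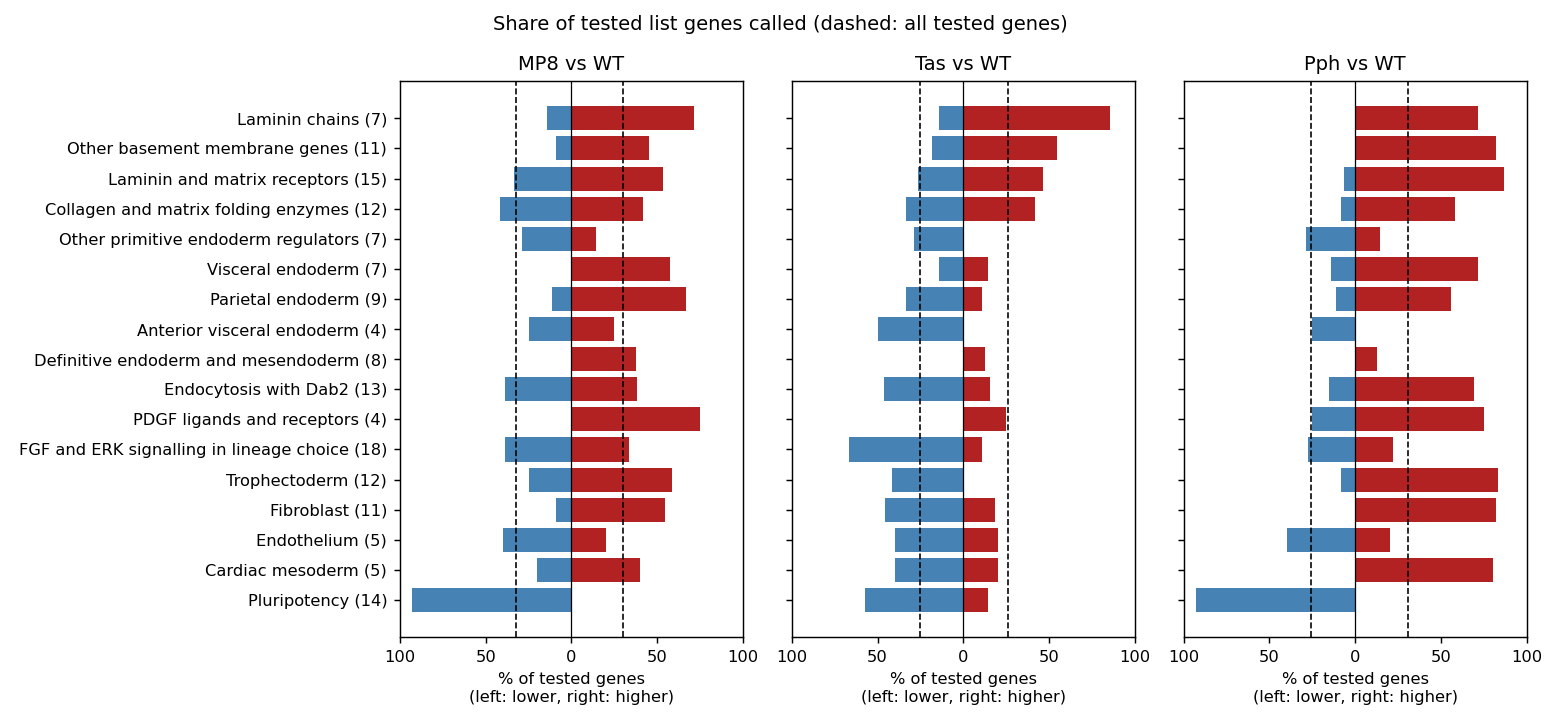
Share of the tested genes of each list (number in brackets; the 10 members left out, and the lists of GATA, SOX and Sparc relatives not drawn) called higher (right) or lower (left) against WT in MP8, Tas and Pph; dashed lines are the shares of all 16840 tested genes. Laminin chains exceed the dashed line on the right in the 3 panels, and pluripotency genes exceed it on the left in the 3 panels. With 7 tested laminin chains, their excess is a description only.

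Markers of other cell types also differed between the groups. Of 11 tested fibroblast markers out of 14, 9 were higher and 0 lower in Pph, 6 and 1 in MP8, and 2 and 5 in Tas. Their summed level was 53.3 to 56.0 CPM in WT, 100.7 to 104.8 in MP8, 45.4 to 51.5 in Tas and 219.5 to 227.2 in Pph. The greatest of the named rises was in Col3a1 (log2 fold change 2.71 ± 0.26 in MP8 and 3.54 ± 0.24 in Pph). Col3a1 averaged 0.479 CPM in WT and 0.166 CPM in Tas, below the filter cutoff of 0.504 CPM. It passed the filter through MP8 and Pph, so its calls are given as description. Postn and Lum, defining fibroblast genes, had 3 counts or fewer in each library. Of 12 tested trophectoderm markers out of 13, 10 were higher and 1 lower in Pph, 7 and 3 in MP8, and 0 and 5 in Tas. Their summed level was 160.6 to 162.1 CPM in WT, 134.6 to 142.1 in MP8, 105.8 to 109.4 in Tas and 854.0 to 899.8 in Pph, where Krt8, a keratin gene, had 440.4 ± 19.2 CPM beside 47.6 ± 1.73 in WT. Cdx2, on this list, averaged 0.254 CPM in WT and 2.31 CPM in Pph, so it too passed the filter only through groups where it was higher. In Pph the summed levels of both lists and Sparc, Lama1, Lamb1, Pdgfra and Dab2 were higher than in WT. In MP8 the summed fibroblast level, Lamb1, Pdgfra and Dab2 were higher, and the summed trophectoderm level, Sparc and Lama1 were lower. That trophectoderm sum does not describe the list broadly, since 7 of its 12 tested markers were higher in MP8 and 3 lower. In Tas both summed levels were lower, Sparc and Pdgfra were higher, and Lama1, Lamb1 and Dab2 were not called. The part of these cell types in the levels of Sparc, Lama1, Lamb1, Pdgfra and Dab2 was not tested.

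Cardiac mesoderm markers, which share Gata4 and Gata6 with primitive endoderm, were 5 tested of 8, with 2 higher and 1 lower in MP8, 1 and 2 in Tas, and 4 and 0 in Pph. Their summed level was 20.4 to 21.7 CPM in WT and 65.7 to 69.7 in Pph, where Hand1, also a trophectoderm marker, rose from 3.12 ± 0.44 to 34.7 ± 2.24 CPM. Endothelial markers, 5 tested of 9, had 1 higher and 2 lower in each null group. Kdr, a receptor gene of vessels and mesoderm, fell in Tas (-2.20 ± 0.09) and Pph (-1.17 ± 0.08), Vwf fell in MP8 (-1.38 ± 0.23) and Tas (-1.07 ± 0.22), and Tek rose in the 3 null groups (0.44 ± 0.04, 0.66 ± 0.04 and 0.36 ± 0.04). The 14 pluripotency genes had 0 higher and 13 lower in MP8, 2 and 8 in Tas, and 0 and 13 in Pph. Klf4, a naive state factor gene, fell in the 3 null groups (-2.64 ± 0.10, -2.92 ± 0.10 and -2.28 ± 0.09), and their summed level was 3132.0 to 3213.2 CPM in WT, 2300.1 to 2329.7 in MP8, 3110.1 to 3155.8 in Tas and 2374.5 to 2499.7 in Pph.

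The members were compared with each other and with other genes by their levels over the libraries. The measure takes in the size of a change as well as its direction. Likeness was measured as the root mean square difference of log2 level relative to WT over the 12 libraries, with 12948 genes of at least 1 CPM in the search. Among member pairs the distance was smallest for Dab2 and Lamb1 (0.236) and greatest for Gata6 and Sparc (0.994). The nearest genes to Sparc were Man2a2 (0.0731), Tmsb4x (0.0767) and Myo1e (0.0818). Each was lower in MP8 and higher in Tas and Pph than in WT, which the search itself selects for. Those nearest to Lamb1 were Map4k5 (0.0676), Jade3 (0.0847) and Usp27x (0.0869), and those nearest to Lama1 were Slc25a22 (0.0422), Map1b (0.049) and Ptprf (0.0544). Dab2 lay closest to Rp2 (0.0896), Enc1 (0.0937) and Ptprn (0.112), and Pdgfra to Rex2 (0.112), Col27a1 (0.146) and Atxn7l3b (0.148). The gene nearest to Sox7, Gata4 or Gata6 lay farther away than that nearest to Pdgfra, which also had few counts. Sox7 lay closest to Vamp4 (0.147), Usp12 (0.175) and Zc3h7a (0.175), and Gata4 to Ddit4l (0.301), Tshz1 (0.315) and Plagl1 (0.323). The nearest to Gata6 were Arhgap20 (0.314), Igdcc3 (0.325) and Dynlt2a3 (0.327).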

How the data were processed

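Per the labels' protocols, total RNA was taken with Trizol and made into TruSeq libraries. GRCm39, HISAT2 2.1.0, RSEM, FastQC and DESeq 1.26.0 are named in the submitters' processing notes, with no roles given. The 3 deposited tables, each with 1 null group and the same WT libraries, gave 57180 genes with the authors' expected counts (estimated reads per gene, 32.5% of those above 0 not whole, tolerance 1e-09) and the authors' TPM per library. The same tables held, per the file headers, the authors' fold change as a ratio, its log2 value, and raw and adjusted p-values.

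Expected counts were rounded and fitted in edgeR 4.0.16 (R 4.3.3): filterByExpr by group (minimum count 10, in practice 0.504 CPM, and minimum total 15), TMM scaling, and 1 robust quasi-likelihood fit of 12 libraries with 8 residual degrees of freedom. The 6 comparisons, 3 with WT and 3 between null groups, were adjusted by Benjamini-Hochberg over 16840 genes at 0.05. Sox17 and Foxa2 were read from a fit with no filter. Reads carried no molecular identifiers, so floors and exact intervals cover counting error only. Alternatives were other scaling, no filter, DESeq2 1.42.0, only the 2 groups compared, a replicate block, each library left out and, chosen after seeing the data, TPM in limma 3.58.1 with a pseudocount of 0.1.

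The members and gene lists were chosen with earlier results of these data known. Named genes were the members, up to 3 called genes per list with the largest change and at least 1 CPM, markers near 0, the 3 genes nearest each tested member and the lost genes. Examples without an adjusted p had one under 0.05 by edgeR. A gene left out of the lists is not reported here.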

Additional observations from a re-analysis of the deposited data

How the results depend on the processing

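The number of members called in Tas against WT, 2 as reported, was the count that moved by more than 1.5 times: it was 4 with upper quartile scaling, 1 with DESeq2, 1 with TPM in limma, and 1 to 3 with a library left out. Counts of members and of all genes called in the other 5 comparisons stayed within 1.5 times, and 615 of 634 values of the members over the alternatives stayed on their side of the threshold. Of the rest, 9 lost their call and 10 gained one. No called member value changed sign, while 6 values not called under either setting did: in Tas against WT Dab2 was 0.06 and Gata6 0.11 in TPM, Gata6 was -0.07 in Pph against WT without WT replicate 1, Sox7 was -0.01 in MP8 against WT without MP8 replicate 2, and Gata4 in Tas against Pph was 0.02 without Tas replicate 1 and 0.04 without Pph replicate 3. Besides those given with the results, Pdgfra lost its Pph call in TPM (limma adjusted p = 0.082) and its Tas call with no filter (edgeR adjusted p = 0.0674) and in TPM (limma adjusted p = 0.155), and the Gata6 difference between MP8 and Pph lost its call with DESeq2 (adjusted p = 0.0564). Of 4284 values of named list genes, 110 lost a call, 24 gained one and 3 called under at least 1 setting turned in TPM with limma: Nodal in Pph against WT at 0.16, Col4a1 in MP8 against Tas at 0.12, and Dab1 in MP8 against Tas at 0.35. The median of all genes in Pph against WT was 0.17 in TPM and 0.04 in counts. The cause was not tested.

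Replicate numbers did not pair the libraries: same-numbered libraries had correlations of their deviations from -0.053 to 0.026 over 18 pairs, and 2 of 12 libraries correlated best with their own number. With the replicate block, 7 members were called in MP8, 2 in Tas and 5 in Pph against WT and 4 in each comparison between null groups, the same counts as without it, and 10303, 8533 and 9327 genes were called against WT. Depth limits Gata4, Gata6, Sox17, Foxa2, Sox7 and Pdgfra, which had 34 to 267 counts over the 12 libraries.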
